A study of Arabidopsis thaliana with 4 samples.

Results

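The genes described here are the 9 Arabidopsis genes that code for PsbP-like and PsbP-domain proteins, PPD1 to PPD7, PPL1 and PPL2. They were taken by locus from the 33539 genes and assembled loci used of the deposited table, and all 9 were found. The loci are AT4G15510 (PPD1), AT2G28605 (PPD2), AT1G76450 (PPD3), AT1G77090 (PPD4), AT5G11450 (PPD5), AT3G56650 (PPD6), AT3G05410 (PPD7), AT3G55330 (PPL1) and AT2G39470 (PPL2). The genes were chosen by family, with the FPKM values of the same 4 libraries already known, so these levels are given as a description and carry no test.

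PsbP is a lumenal protein of the oxygen-evolving complex, which helps photosystem II hold the calcium and chloride it needs to split water. PsbP-like and PsbP-domain proteins share its fold, are coded in the nucleus and are imported into the chloroplast, and most of them reach the thylakoid lumen. They are not subunits of the oxygen-evolving complex, and those with a known role act in the assembly or repair of the photosystems or in the chloroplast NDH complex, which feeds electrons back into the photosynthetic chain.

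RNA came from whole seedlings grown for 5 days on MS medium, either with no antibiotic or with 50 mg/l kanamycin, an aminoglycoside that blocks protein synthesis on bacterial, plastid and mitochondrial ribosomes. The wbc19 mutant is the T-DNA insertion line SALK_107731, in which the insertion lies in the gene of the ABC transporter WBC19. The control is another T-DNA line, SALK_064816C, whose insertion, upstream of TT4, disrupts no gene. Both lines carry the kanamycin resistance gene of the T-DNA, so that no group is a plant without a transgene, and each genotype is 1 insertion line. Each of the 4 conditions (control, control + kanamycin, wbc19 mutant, wbc19 mutant + kanamycin) is 1 library, so no difference below has a replicate check in these data. From these same libraries, the paper listed PPD3 as lower and PPD7 as higher in the mutant without kanamycin. It described this as a shift between PsbP isoforms. The paper also assayed PPD3 (as PsbP) by real-time PCR with 4 biological replicates, whose values were not used here.

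The transcript level of WBC19 ran opposite to the labels, but at low values whose reads were not estimated. It was listed at 0 in both control-line libraries. In the line labelled wbc19 mutant it stood at 3.00 FPKM without and 2.30 FPKM with kanamycin. FPKM is a fragment count scaled by transcript length and by the number of mapped reads. The libraries are therefore named below by their labels only, and every direction between lines rests on those labels. Between 9013 and 15072 genes were above 0 in a library, with the fewest in the library labelled wbc19 mutant. For a gene with 1000 bases left after a set 200 bases are subtracted, 1 read was worth 0.582 to 1.19 FPKM, as estimated from the steps between low values. Of the lowest values, 77.3% to 85.5% lay within 0.2 of a whole read. With 36 bases subtracted, 1 read was worth 0.666 to 1.34 FPKM, and 84.4% to 90.7% lay within 0.2. The steps were chosen to bring these same values close to whole reads, so such shares are no check of the estimate. With 200 bases subtracted they rest on 1134 values in control and 159 in control + kanamycin. In wbc19 mutant they rest on 156 values, and in wbc19 mutant + kanamycin on 927. The green shoot markers, led by RBCS1A, the Rubisco small subunit, and RCA, Rubisco activase, were under 2-fold apart in all 4 comparisons and summed to 10912 to 15718 FPKM per library. Of the 8 root markers, 2, 4, 6 and 3 were listed at 0 in the libraries labelled control, control + kanamycin, wbc19 mutant and wbc19 mutant + kanamycin, and their sum of 517 to 1306 FPKM was mostly PYK10, a beta-glucosidase of root ER bodies, with RCI3, a root peroxidase, at 0 to 18.5 FPKM. The paper describes mutant seedlings on kanamycin as having stunted roots and green leaves, and control seedlings on it as without visible symptoms. The part of the shoot and root shares in the results below was not tested. In such bulk samples fewer cells of a type and less RNA per cell cannot be told apart.

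The 9 genes together gave nearly the same transcript level in every library, but a different member led each time. In control their FPKM summed to 305 without and 343 with kanamycin, and in the line labelled mutant to 318 without and 297 with it. PPL1 was the highest in the library labelled control, with 29.9% of the sum. PPD3 led in control + kanamycin with 44.5%, PPD7 in wbc19 mutant with 40.3% and PPL2 in wbc19 mutant + kanamycin with 42.6%. This near-constant sum depends on the scale, because with the libraries scaled by their upper quartiles the sums were 379, 292, 255 and 351 FPKM. The median member stood at 25.3, 26.6, 13.9 and 22.9 FPKM in the same order.

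**Figure D1:**
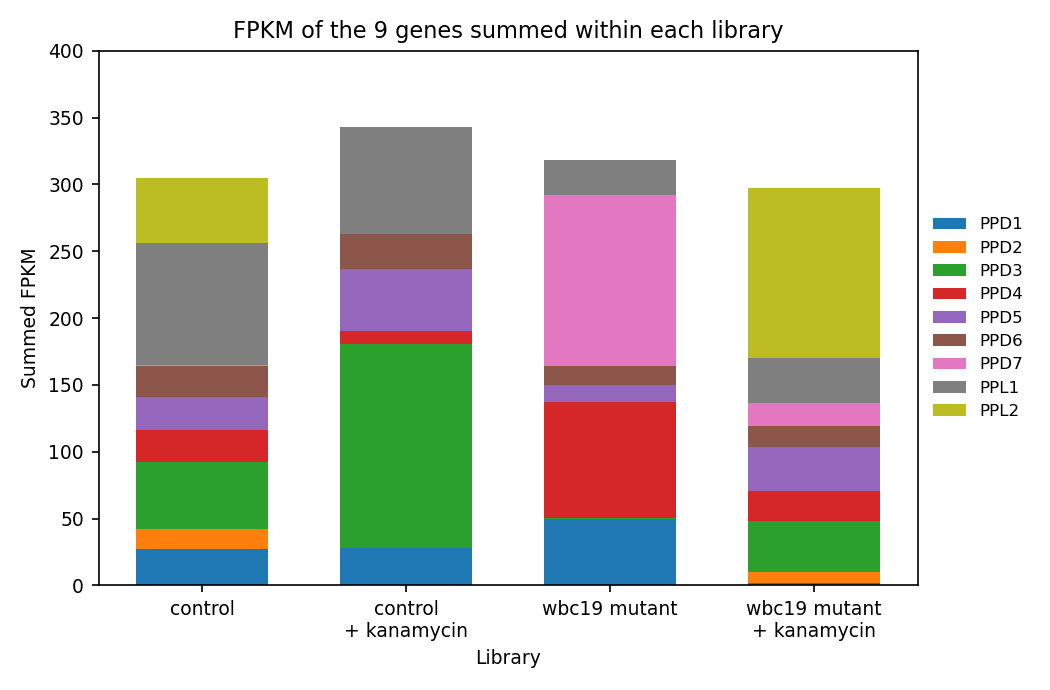
Summed FPKM of the 9 genes (vertical axis, from 0) in each of the 4 libraries (horizontal axis), with 1 colour per gene. The bars reach 297 to 343 FPKM, and the largest block is PPL1 in control, PPD3 in control + kanamycin, PPD7 in wbc19 mutant and PPL2 in wbc19 mutant + kanamycin.

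PPL1 (chromosome 3, 20513739 to 20515392, minus strand in TAIR10.1, 7 exons) is needed for efficient repair of photosystem II after light damage. In control its transcript stood at 91.0 FPKM without and 80.1 FPKM with kanamycin, and in the line labelled mutant at 26.0 and 33.6 FPKM. Both control-line libraries were above both mutant-line libraries, by 3.50-fold without kanamycin and 2.38-fold with it. The counting intervals of the 2 lines did not overlap, while those of the libraries with and without kanamycin did so within each line. These intervals cover counting error only, and the share of all genes without such overlap was not counted. Of the genes that averaged 5 FPKM or more, 61% were at least 2-fold apart between the lines without kanamycin and 59.4% with it. PPL1 was the only member with at least 20 estimated reads in every library, from 22 to 107.

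PPL2 (chromosome 2, 16476198 to 16477843, plus strand, 8 exons) is also called PNSL1 and is a lumenal subunit of the NDH complex. Of all members, it had the kanamycin differences that lay furthest apart between the lines. It was high in the libraries labelled control (48.3 FPKM) and wbc19 mutant + kanamycin (126.7 FPKM), behind which are an estimated 35 and 88 reads. In the 2 other libraries it was at 0.0160 FPKM (control + kanamycin) and 0.0404 FPKM (wbc19 mutant), both under the value of 1 read. On the log2(FPKM + 1) scale, in which 1 FPKM is added to each value, its difference with kanamycin was -5.60 in the control line and 6.94 in the line labelled mutant. The size of such a difference depends on the added 1 FPKM, and no fold is given against a level under 1 read. The 2 libraries in which PPL2 was under 1 read were those with the fewest genes above 0, and the part of this was not tested. The entry of PPL2 in the deposited table spans 16476216 to 16485039 and also covers AT2G39480 (PGP6), on the other strand, whose annotated transcript overlaps that of PPL2 by 52 bases. That neighbour stood at 4.78, 13.1, 0.513 and 3.62 FPKM in the 4 libraries, and whether reads were divided correctly between the genes of this locus was not tested.

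Of the 9761 genes that averaged 5 FPKM or more across the libraries, the gene with the profile closest to that of PPL2 was RGF9 (AT5G64770), a gene for a root growth factor peptide. Profiles were compared by the root mean square distance of log2(FPKM + 1) values, each centred on its mean over the 4 libraries, and RGF9 lay at 0.15. It was listed at 39.4 FPKM in control, 139.5 FPKM in wbc19 mutant + kanamycin and 0 in the others. The next were ATMG00330 and ATMG00780, mitochondrial tRNA genes with identical values, at a distance of 0.20. With 4 libraries such likeness is a description only.

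PPD1 (chromosome 4, 8860462 to 8862693, plus strand, 3 or 4 exons in 5 transcripts) helps to assemble photosystem I. In control it stood at 26.9 FPKM without and 27.9 FPKM with kanamycin, and in the line labelled mutant at 49.5 FPKM without and 1.47 FPKM with it. The first 3 of these libraries were within 1.84-fold of each other, and the last, which rests on an estimated 2 reads against 32 to 92, was far below them. With kanamycin in the line labelled mutant the log2 difference was -4.36, and the counting intervals of the levels allow -5.66 to -2.46.

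PPD3 and PPD7 reached the highest levels of any member, PPD3 in the library labelled control + kanamycin and PPD7 in that labelled wbc19 mutant, and each was at or near 0 in the library where the other was highest. PPD3 lies on chromosome 1 from 28684551 to 28686244 (plus strand, 10 exons) and PPD7 on chromosome 3 from 1554673 to 1561535 (plus strand, 2 or 3 exons in 3 transcripts). Their upstream sequences are shown because of these opposite levels. Each is the 250 bases before the annotated start (RefSeq, TAIR10.1, plus strand, 5′ to 3′), that of PPD3 at chr1:28684301-28684550 and that of PPD7 at chr3:1554423-1554672, and neither holds another annotated gene. Capitals mark the I-box GATAAG, a promoter element found in many light-regulated plant genes, on either strand (CTTATC on the other). The G-box CACGTG was searched as well, and no other motif was.
PPD3 upstream: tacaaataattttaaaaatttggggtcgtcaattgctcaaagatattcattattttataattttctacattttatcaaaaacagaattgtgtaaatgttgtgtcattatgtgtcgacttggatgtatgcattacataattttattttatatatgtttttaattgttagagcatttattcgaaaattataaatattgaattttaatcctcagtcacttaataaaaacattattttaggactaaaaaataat
PPD7 upstream: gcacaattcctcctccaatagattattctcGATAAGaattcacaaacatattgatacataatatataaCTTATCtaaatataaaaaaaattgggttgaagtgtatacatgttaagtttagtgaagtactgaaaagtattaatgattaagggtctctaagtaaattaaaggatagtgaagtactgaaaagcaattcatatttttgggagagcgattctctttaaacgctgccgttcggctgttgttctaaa

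The PPD7 sequence holds 2 I-boxes, with the first base 220 and 182 bases before the start, and the PPD3 sequence has no match to either motif. Of the 27443 upstream regions of this length, 12.3% held an I-box and 6.49% a G-box. Among the other members, PPL2 had 1 I-box, PPD4 had 1 G-box with its first base 9 before the start, and PPD1, PPD2, PPD5, PPD6 and PPL1 had neither. The windows of PPD2, PPD5, PPD6, PPL1 and PPL2 run into a neighbouring gene. A match of these letters is a description of the sequence and not evidence of a binding site.

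PPD3 stood at 50.4 FPKM in control without kanamycin and at 152.6 FPKM with it. In the line labelled mutant the corresponding levels were 0.832 and 38.0 FPKM. The value in wbc19 mutant rests on about 1 read, against 24 to 196 in the other libraries. Kanamycin went with a higher level in both lines, by 3.03-fold in control (log2 difference 1.58) and from about 1 read to 24 in the line labelled mutant. In the deposited table PPD3 shares its locus with AT1G76460, on the other strand with an overlap of 64 bases, which stood at 3.58, 19.6, 3.32 and 5.31 FPKM and was also highest in control + kanamycin.

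PPD7 stood at 1.29 FPKM in control and was listed at 0 there with kanamycin. In the line labelled mutant it reached 128.3 FPKM without and 17.3 FPKM with kanamycin. These values rest on about 1, 0, 143 and 12 reads. Both libraries of the line labelled mutant were above both control-line libraries, and in the line labelled mutant the level was 7.42-fold lower with kanamycin. PPD7 is the one member with exon stretches of 36 bases, the length of the clipped reads, that occur elsewhere in the genome, 50 of 1081 or 4.63%. The gene AT3G05415, listed in the same locus, was at 0 in all 4 libraries.

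**Figure D2:**
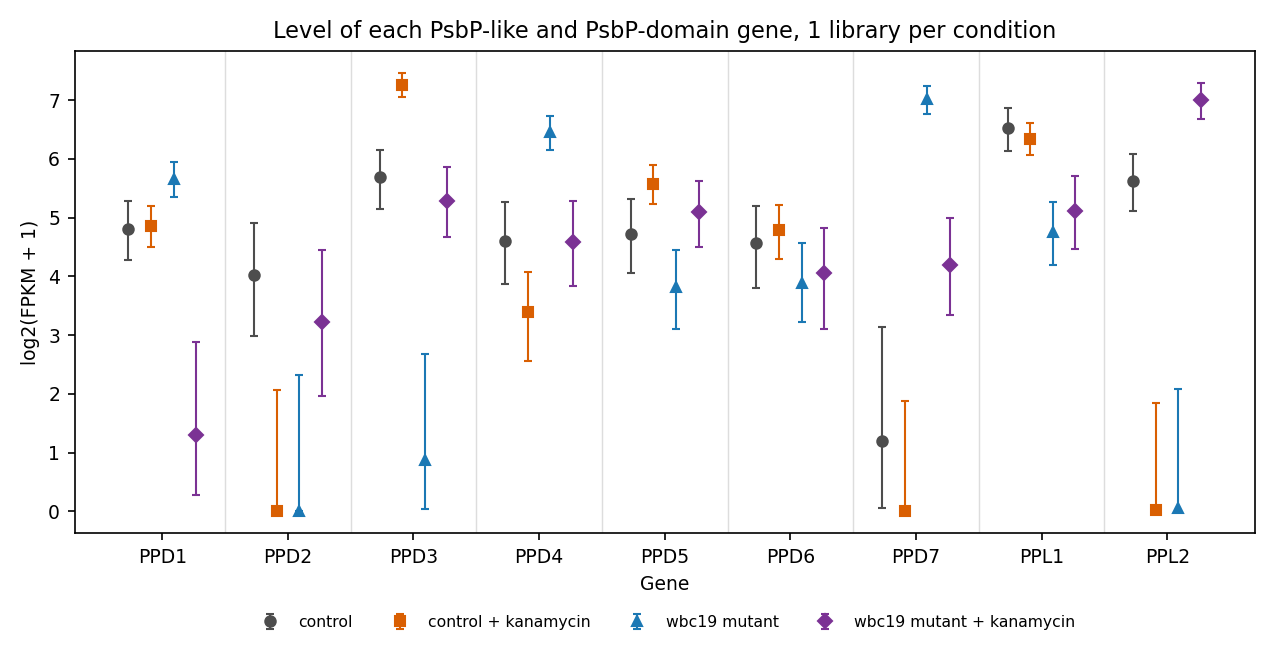
Level of each of the 9 genes (horizontal axis) as log2(FPKM + 1) (vertical axis), with 1 point per library and bars that span the 95% exact Poisson interval of the estimated reads, which covers counting error only. PPD1, PPD2, PPD3, PPD7 and PPL2 have a library under 2 FPKM, while the 4 libraries of PPD6 lie within 0.89 of each other.

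PPD2 (chromosome 2, 12254888 to 12255923, plus strand, 2 exons) was the lowest of the 9 genes over the 4 libraries. Reads were present in the libraries labelled control (15.3 FPKM) and wbc19 mutant + kanamycin (8.37 FPKM), and the gene was listed at 0 in the others. Its values rest on about 9, 0, 0 and 5 reads, and the 5 reads in wbc19 mutant + kanamycin have a 95% counting interval of 2.88 to 20.7 FPKM. The 0 listed in wbc19 mutant allows up to 3.23 FPKM when 3 reads are taken as the limit of a count of 0, so these levels overlap.

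PPD4 (chromosome 1, 28960312 to 28961974, minus strand, 5 exons) stood at 23.2 FPKM without and 9.50 FPKM with kanamycin in control, and at 86.6 and 22.9 FPKM in the line labelled mutant. Kanamycin went with a lower level in both lines, by 2.44-fold in control and 3.77-fold in the line labelled mutant. The levels in control and wbc19 mutant + kanamycin were nearly equal, and the counting intervals of all but the library labelled wbc19 mutant overlap.

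PPD5 (chromosome 5, 3654392 to 3656647, plus strand, 11 exons), whose loss has been linked to the strigolactone branching hormones, stood at 25.3 FPKM in control and 46.4 in control + kanamycin. In the line labelled mutant it stood at 13.1 FPKM without and 33.1 FPKM with kanamycin. It was higher with kanamycin in both lines, and only the difference in the line labelled mutant, 2.52-fold, reached 2-fold. The counting interval of that log2 difference is wide, from 0.04 to 2.52.

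PPD6 (chromosome 3, 20984635 to 20986308, plus strand, 3 exons), a lumen protein with a disulfide bond that thioredoxin can reduce, varied least in the deposited values. Without and with kanamycin it stood at 22.8 and 26.6 FPKM in control and at 13.9 and 15.6 FPKM in the line labelled mutant, and the counting intervals of all 4 libraries overlap. It was the only member under 2-fold apart in every comparison, which held for 9.8% of the 9761 genes. With upper quartile scaling it was no longer so, at -1.28 in wbc19 mutant against control. The highest and lowest library of a member were 0.89 apart for PPD6 on the log2 scale, 1.75 for PPD5, 1.77 for PPL1, 3.06 for PPD4, 4.03 for PPD2, 4.36 for PPD1, 6.39 for PPD3, 6.97 for PPL2 and 7.01 for PPD7. The annotated ends of PPD5 and PPD6 overlap AT5G11460 by 66 bases and AT3G56660 by 200 bases on the other strand, so reads there cannot be assigned with certainty. By profile, PPD6 and PPL1 were the closest pair of members, at a distance of 0.43, and PPD3 and PPD7 the farthest, at 5.01.

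The response of control seedlings to kanamycin was asked first. Of the 9 genes, PPD3 was at least 2-fold higher with kanamycin, 4 were lower (PPD2, PPD4, PPD7 and PPL2) and 4 were under 2-fold apart (PPD1, PPD5, PPD6 and PPL1). At least 2-fold here means a log2 difference of 1 on the log2(FPKM + 1) scale, a rule of size with no test. Of all 9761 genes, 57.4% passed this rule here (26.6% higher, 30.8% lower), so that a count of 5 of 9 is near the background. The median difference of the 9 genes was -0.18, and that of all genes was -0.0044. With at least 5 FPKM required in both libraries, a limit chosen after the data were seen, 6 of the genes remained, with PPD3 higher and PPD4 lower, and the background was 38.2%.

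The line labelled wbc19 mutant was then compared with control in the absence of kanamycin. PPD4 and PPD7 were higher in the library labelled wbc19 mutant, PPD2, PPD3, PPL1 and PPL2 were lower, and PPD1, PPD5 and PPD6 were under 2-fold apart. The log2 difference was 5.82 for PPD7 and -5.57 for PPL2, and which of them was larger in size depended on the setting, since it was 6.52 and -8.43 with a pseudocount of 0.1 and 5.31 and -5.89 with upper quartile scaling. The background was 61% of all genes, with 23.9% higher and 37.2% lower. The median of the 9 genes was -0.90 and that of all genes was -0.28. A log2 difference of at least 4 in size was reached by 4 of the 9 genes (PPD2, PPD3, PPD7 and PPL2) and by 13.7% of all genes, and with a pseudocount of 5 by PPD7 alone of the 9. With at least 5 FPKM in both libraries, PPD4 (higher) and PPL1 (lower) were left as calls among 5 genes, with a background of 38.6%.

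On kanamycin, PPD2, PPD4, PPD7 and PPL2 were higher in the library labelled wbc19 mutant + kanamycin than in control + kanamycin. PPD1, PPD3 and PPL1 were lower, and PPD5 and PPD6 were under 2-fold apart. The background was 59.4%, with 29% of genes higher and 30.4% lower. The largest difference was that of PPL2, 6.97 on the log2 scale, and the median of the 9 genes was -0.48 against 0 for all genes. With at least 5 FPKM in both libraries, PPD4 stayed higher and PPD3 and PPL1 lower, among 5 genes and with a background of 39.6%.

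In the line labelled mutant, kanamycin went with higher levels of PPD2, PPD3, PPD5 and PPL2 and lower levels of PPD1, PPD4 and PPD7, with PPD6 and PPL1 under 2-fold apart. The background was 62.8% of all genes (35.7% higher, 27.1% lower), and the medians were 0.36 for the 9 genes and 0.08 for all. With at least 5 FPKM in both libraries, PPD5 was higher and PPD4 and PPD7 were lower among 5 genes, and the background was 41.9%. Each library enters 2 of the 4 comparisons, so these lists are not independent of each other. A log2 difference of at least 4 in size was reached by 3 of the 9 genes and 15.7% of all genes here, by 2 and 10.2% for kanamycin in control, and by 2 and 12.5% between the lines with kanamycin. In none of the comparisons did the 9 genes differ in 1 direction only.

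**Figure D3:**
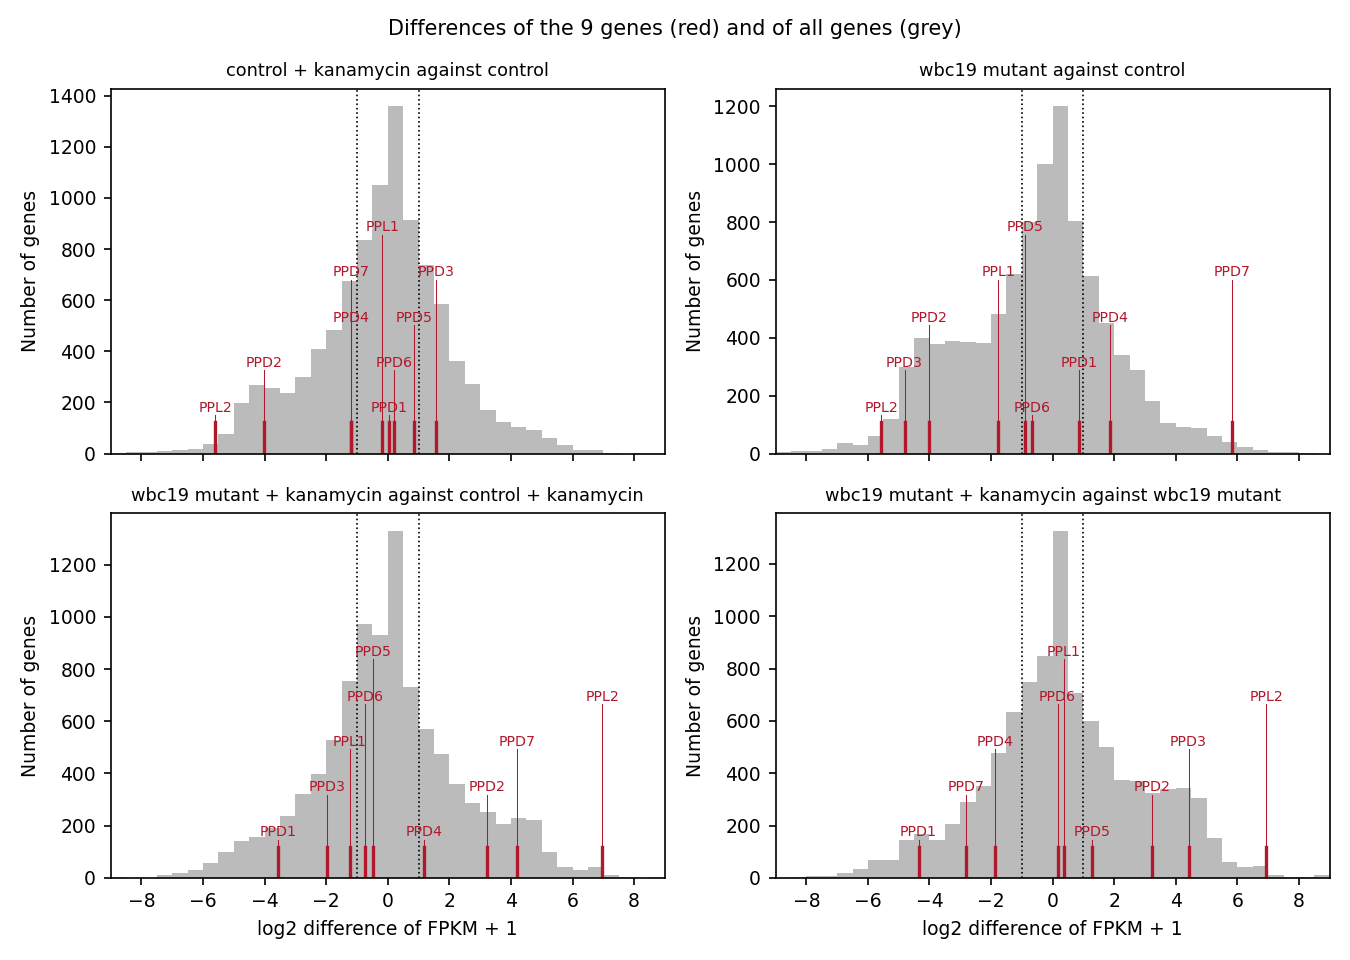
Number of genes (vertical axis) by log2 difference of FPKM + 1 (horizontal axis, bins of 0.5) in the 4 comparisons, for the genes that average 5 FPKM or more (grey), with the 9 genes as named red marks and dotted lines at -1 and 1. The 9 genes spread over both sides in every comparison, from -5.60 (PPL2, control + kanamycin against control) to 6.97 (PPL2, wbc19 mutant + kanamycin against control + kanamycin).

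PPD2 and PPL2 were lower with kanamycin in control and higher with it in the line labelled mutant, both by at least 2-fold. For PPD2 the log2 differences were -4.03 and 3.23, for PPL2 -5.60 and 6.94. The sizes depend on the pseudocount, since each gene was at 0 or under 1 read in 2 libraries. For both genes these were control + kanamycin and wbc19 mutant, the libraries with the fewest genes above 0. Such opposite pairs made up 18.6% of the 9761 genes. PPD3, PPD4 and PPD7 were at least 2-fold apart in both lines in the same direction, PPD3 higher with kanamycin and PPD4 and PPD7 lower. However, PPD7 in control rests on about 1 read. With kanamycin, 57.4% of the 9761 genes were at least 2-fold apart in control and 62.8% in the line labelled mutant. The share apart in both lines in the same direction was not counted.

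Values near 0 were common in this family, as they were among all genes when level was not taken into account. Of the 36 values, 8 were under 2 FPKM and 3 of these were listed at 0. The 5 genes concerned (PPD1, PPD2, PPD3, PPD7 and PPL2) are 5 of 9, and 50.7% of the 9761 genes had at least 1 library under 2 FPKM. Among genes that average 20 to 100 FPKM, where 7 of the 9 lie, the share was 22.6%, and for those that average 5 to 20 FPKM it was 69.3%. PPD1, PPD3, PPD7 and PPL2 are in the first of these classes and PPD2 is in the second. By library, 1, 3, 3 and 1 of the 9 were under 2 FPKM in the libraries labelled control, control + kanamycin, wbc19 mutant and wbc19 mutant + kanamycin, against 11.5%, 20.8%, 29.5% and 16.2% of all genes. The libraries labelled control + kanamycin and wbc19 mutant, in which more of the 9 were near 0, were also those with the fewest genes above 0. By the estimated steps they were the deeper libraries, with 1 read per 1000 bases worth 0.582 and 0.722 FPKM. In control and wbc19 mutant + kanamycin it was worth 1.13 and 1.19 FPKM. The part of these library differences in the results was not tested.

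The oxygen-evolving complex, which the PsbP-like proteins resemble in fold, showed steady levels in the same libraries. PSBP1, the main PsbP gene, stood at 1309 and 1733 FPKM in control without and with kanamycin, and at 1770 and 1707 FPKM in the line labelled mutant. PSBP2, its shortened relative, was listed at 0 in all but the library labelled wbc19 mutant, where it stood at 6.03 FPKM. PSBO1 and PSBO2, which shield the manganese cluster, were at 1068 to 1584 and 345 to 534 FPKM. PSBQ1 and PSBQ2, the third extrinsic subunit, were at 600 to 799 and 382 to 631 FPKM, and PSBR was at 1803 to 2453 FPKM. Apart from PSBP2 none of the 7 was 2-fold apart in any comparison, and their sum was 20.5 to 24.6 times that of the 9 PsbP-like and PsbP-domain genes. Among all genes that average 300 FPKM or more, as all of the complex but PSBP2 do, 20.2% to 26.3% were at least 2-fold apart. Among those that average 20 to 100 FPKM, as 7 of the 9 PsbP-like and PsbP-domain genes do, the share was 52.1% to 58.7%.

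The NDH lumenal subunits and PsbQ-like proteins include the partners of PPL2 in the NDH complex. The counts of this and the following lists take genes that average 1 FPKM or more, as 15340 of all genes did. Of the 5 genes, 0 were at least 2-fold higher and 4 lower in control + kanamycin than in control, against 24.3% higher and 35.8% lower of those 15340. Likewise 0 were higher and 4 lower in wbc19 mutant than in control, against 20.1% and 43.3%. On kanamycin 1 was higher and 0 lower in the library labelled mutant, against 32.2% and 28.4%, and in the line labelled mutant 3 were higher and 0 lower with kanamycin, against 39% and 23.1%. PNSL5, a lumenal cyclophilin of the NDH complex, stood at 80.7 and 33.8 FPKM in control without and with kanamycin and at 12.2 and 62.8 FPKM in the line labelled mutant. PNSL2, a PsbQ-like subunit, stood at 59.0, 25.1, 13.4 and 67.1 FPKM. Both were lowest in wbc19 mutant and second lowest in control + kanamycin, the libraries in which PPL2 was under 1 read. Those libraries also had the fewest genes above 0, and the part of this was not tested. Opposite differences with kanamycin in the 2 lines, each at least 2-fold, as PNSL5, PNSL2 and PNSL3 had, were found in 18.6% of the 9761 genes. Those of PNSL3 were -1.66 in control and 2.81 in the line labelled mutant. In the other 3 genes, control and wbc19 mutant + kanamycin were not both above the 2 other libraries, as they were in PPL2. PNSL4 was highest in control + kanamycin (52.8 FPKM, against 27.6 in control and 21.7 and 31.6 in the line labelled mutant without and with kanamycin). PNSL3 stood at 32.4 and 9.57 FPKM in control without and with kanamycin and at 0 and 6.01 FPKM in the line labelled mutant, and PQL3 was listed at 0 in all libraries but control (5.51 FPKM). These 3 were named after their values were seen. The median log2 differences of the 5 were -1.23 for kanamycin in control, -2.63 between the lines without kanamycin, 0 between them with it, and 2.24 for kanamycin in the line labelled mutant.

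**Figure D4:**
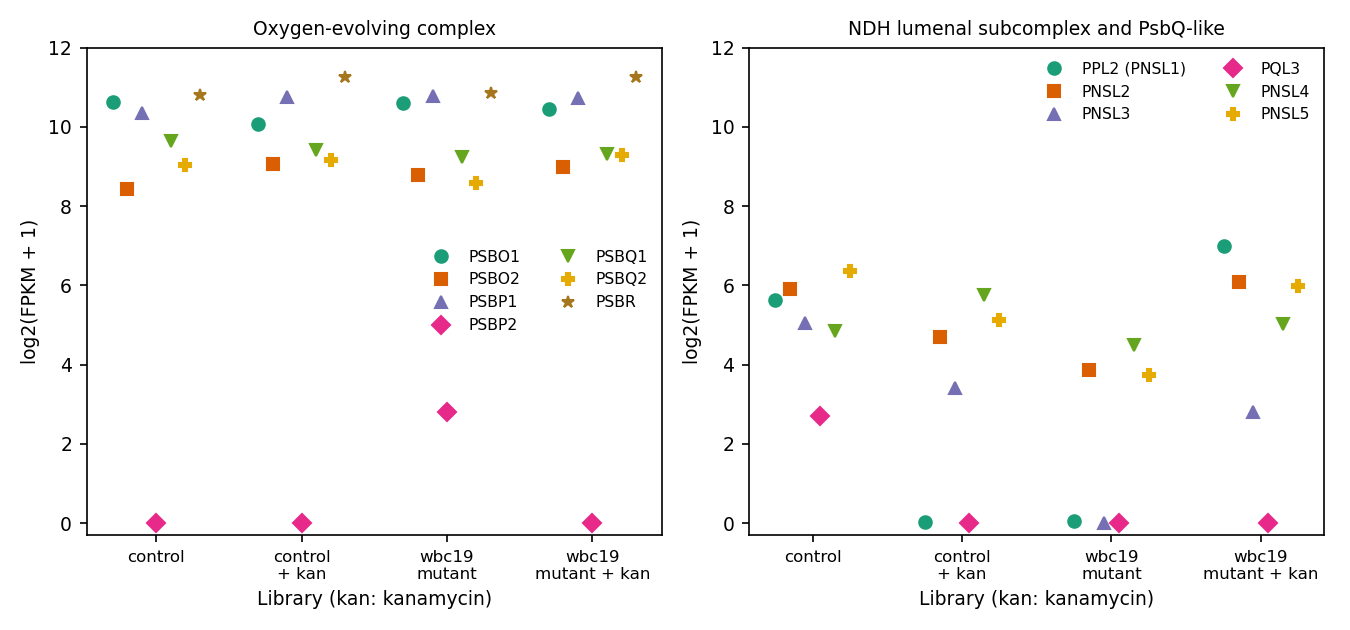
Levels as log2(FPKM + 1) (vertical axes) in the 4 libraries (horizontal axes) for the genes of the oxygen-evolving complex (left) and for PPL2 with the NDH lumenal and PsbQ-like genes (right), 1 symbol per gene. All oxygen-evolving genes but PSBP2 stay above 300 FPKM, while PPL2, PNSL2 and PNSL5 are lower in control + kanamycin and wbc19 mutant than in the 2 other libraries.

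Of the 5 photosystem I assembly genes, the group in which PPD1 acts, 2 were higher and 1 lower in control + kanamycin than in control (24.3% and 35.8% of all genes), and 0 were higher and 3 lower in wbc19 mutant than in control (20.1% and 43.3%). On kanamycin 1 was higher and 1 lower in the library labelled mutant (32.2% and 28.4%). All 5 were higher in wbc19 mutant + kanamycin than in wbc19 mutant, as were 39% of all genes, and the log2 difference of PPD1 there was -4.36. PSA2, a zinc finger protein of photosystem I assembly, stood at 82.5, 19.6, 23.2 and 99.6 FPKM, in the order control, control + kanamycin, wbc19 mutant, wbc19 mutant + kanamycin, which holds for the levels below as well. PYG7, a tetratricopeptide protein of the same process, stood at 30.4, 64.6, 24.0 and 65.3 FPKM.

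Of the 18 photosystem II assembly and repair genes found, the group in which PPL1 acts, 1 was higher and 4 lower in control + kanamycin than in control (24.3% and 35.8% of all genes), and 5 were higher and 5 lower in wbc19 mutant than in control (20.1% and 43.3%). In the other comparisons 4 were higher and 3 lower, both between the lines on kanamycin (32.2% and 28.4%) and within the line labelled mutant (39% and 23.1%). PSB27, a lumenal assembly factor, stood at 240.3, 266.0, 111.7 and 203.1 FPKM, and TLP18.3, a lumenal repair protein, at 112.5, 223.1, 104.0 and 162.0 FPKM. PSB27 was, like PPL1, lowest in wbc19 mutant, but unlike PPL1 it was high in wbc19 mutant + kanamycin.

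Of the 7 genes that import or process lumen proteins, 2 were higher and 0 lower in control + kanamycin than in control (24.3% and 35.8% of all genes), and 1 was higher and 3 lower in wbc19 mutant than in control (20.1% and 43.3%). On kanamycin 1 was higher and 0 lower in the library labelled mutant (32.2% and 28.4%), and 3 were higher and 0 lower in wbc19 mutant + kanamycin than in wbc19 mutant (39% and 23.1%). THA4, a subunit of the twin-arginine translocase, stood at 74.1, 154.8, 20.2 and 154.6 FPKM. HCF106, another of its subunits, stood at 47.5, 46.7, 37.8 and 65.8 FPKM and was under 2-fold apart throughout.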

How the data were processed

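Poly(A) RNA of whole seedlings was sequenced as 4 libraries, 1 per condition. After clipping, the authors mapped the reads on TAIR10 (TopHat2 2.0.5), built transcripts (Cufflinks 2.0.2) and derived FPKM values (Cuffdiff 1.3.0), which the deposited table lists under the header rpkm. The table also holds the authors' own comparisons (log2 fold change, p-value, q-value and test status), which were not used. No read totals are given in it, so depth was estimated from the steps between low FPKM values, with 200 bases subtracted from each transcript length. This length was set in advance and is longer than the fragments that the paper gel-purified. The paper lists mapped reads per library under sample numbers that name no condition, and these totals were not used here. Intervals are 95% exact Poisson intervals of the estimated reads. Because the reads were amplified by PCR and carry no molecular identifiers, such intervals leave out all but counting error.

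Of 33624 entries, 78 with copies of a value that differed and 7 without a value were left out, and 27 values written as 0.01 in place of 0 were set to 0. Differences are log2 ratios of FPKM + 1, called at 1 or more, among genes averaging 5 FPKM or more, which all 9 members passed. For the other gene lists the limit was 1 FPKM. With 1 library per condition no test was made. The members and gene lists were chosen with earlier results of these data known. Named are all members, every gene of the oxygen-evolving complex, the 2 genes of each other list with the highest mean FPKM, the 3 nearest profiles of the member with the largest differences, and WBC19. One listed photosystem II assembly gene was not analysed here. All 23603 loci compared overlapped the RefSeq annotation of TAIR10.1, from which upstream sequences and exons were read, and no protein sequences were used here. Computations used Python 3.11.15, numpy 2.4.6, pandas 2.3.3, scipy 1.17.1 and matplotlib 3.10.9. Pseudocounts of 0.1 and 5, different FPKM limits, library scalings and effective lengths were tried as alternatives.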

Additional observations from a re-analysis of the deposited data

Results flagged for a closer look

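The kanamycin differences of PPD2 and PPL2 had opposite signs in the control line and in the line labelled mutant. The difference in the line labelled mutant less that in control was 7.25 on the log2 scale for PPD2 and 12.5 for PPL2. Both sizes depend on the pseudocount, since each gene was at 0 or under 1 read in 2 libraries. With pseudocounts of 0.1 and 5 they were 13.7 and 3.44 for PPD2 and 18.5 and 8.12 for PPL2. Of the 9761 genes, 18.6% had such opposite differences, each at least 2-fold. Both genes were near 0 in control + kanamycin and wbc19 mutant, the libraries with the fewest genes above 0. Each of the 4 libraries involved is single, so the difference between the lines was not tested. PPD2 rests on at most 9 estimated reads in a library and PPL2 on up to 88.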

How the results depend on the processing

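No paired analysis was possible because each condition is 1 library and the labels carry no replicate numbers. No member's difference of at least 2-fold changed sign under the alternatives tried. Of the 36 log2 differences of single members, 10 moved by more than their counting interval with a pseudocount of 0.1, 1 with a pseudocount of 5 and 0 under either scaling. The estimated reads moved for 0 of 36 values whether 36 bases or none were subtracted from the transcript length. They depended more on the transcript chosen for PPD1 and PPD7. With the shortest annotated transcript in place of the longest, those in wbc19 mutant fell from 92.4 to 59.1 for PPD1 and from 143 to 88.5 for PPD7.

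Upper quartile scaling moved the median difference of the 9 genes to -0.72 for kanamycin in control, -1.49 between the lines without kanamycin, -0.016 between them with it, and 0.90 for kanamycin in the line labelled mutant. It moved the median of all genes to -0.59, -0.95, 0.31 and 0.68 in the same order, and the summed levels to 379, 292, 255 and 351 FPKM. The members higher and lower were then 1 and 4, 2 and 6, 4 and 2, and 4 and 3. Median ratio scaling moved the last 2 medians to -0.30 and 0.49, and a pseudocount of 5 moved the median between the lines without kanamycin to -0.74.

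For kanamycin in control, 2 members were lower with a pseudocount of 5 in place of 4. With 5 FPKM or more in both libraries, an alternative chosen after seeing the data, 1 was lower in that comparison, 1 was higher and 1 lower between the lines without kanamycin, and 1 was higher in each of the others. With a pseudocount of 5 all 9 members kept a value, and PPD4 (-0.96) and PPD7 (-0.33) no longer reached 2-fold. With 5 FPKM or more in both libraries fewer members were counted.

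The share of all genes at least 2-fold apart for kanamycin in control was 59.8% with a pseudocount of 0.1, 45.3% with 5, 59.2% with upper quartile scaling, 60.2% with a mean of at least 1 FPKM, 46.4% with a mean of at least 20 and 38.2% with 5 FPKM or more in both libraries. Between the lines without kanamycin these shares were 63.3%, 49.7%, 64.4%, 63.4%, 50.3% and 38.6%. Between the lines with kanamycin they were 61.9%, 47.8%, 60.7% (mean of at least 1), 49.1% (mean of at least 20) and 39.6% (5 FPKM or more in both), without upper quartile scaling, which did not move it. For kanamycin in the line labelled mutant they were 65.1%, 51.5%, 63.9% with upper quartile scaling, 53.1% with a mean of at least 20 and 41.9%.

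The count of reads behind a value limits the low values. By the estimated steps alone, the libraries with more values near 0 were the deeper ones. The part of depth in these values was not tested. At 0 to 2 estimated reads, a level listed near 0 cannot be told apart from one of a few FPKM, and without replicates no value here covers differences between plants.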
